A study of Mus musculus with 2 samples.

Results

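DNA replication genes were examined in cells sorted from mouse bone marrow as Lin-c-kit+Sca1+ (2 samples), the marrow fraction that holds haematopoietic stem cells and multipotent progenitors. The set comprised 40 genes chosen by function, for origin licensing, the replicative helicase, polymerases, the sliding clamp, nucleotide supply, and fragment ligation and chromatin assembly. Of these, 38 had at least 1 probe set that named the gene alone on the Affymetrix mouse array, out of 8251 genes measured in this way. They were read by 48 probe sets. Pole, the catalytic subunit of polymerase epsilon, was not analysed here, and Tyms, the thymidylate synthase gene, was named only together with its pseudogene and was not counted. Both samples form a single group, called sample 1 and sample 2 after their titles. Their labels give no treatment, genotype, strain or age, and do not say whether the cells came from separate animals or sorts. The spread described here may therefore be technical, and no p-value is given.

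Chromosomal DNA is copied once in each cell cycle. In G1 the origin recognition complex, with Cdc6, loads the ring-shaped Mcm2 to Mcm7 helicase on origins, and in S phase the kinase Cdc7 and the factor Cdc45 help to fire them. Polymerase alpha with primase starts each strand, polymerases delta and epsilon extend it while held by the Pcna clamp, and Fen1 and Lig1 join the lagging strand pieces. Many of these genes are targets of E2F transcription factors and are expressed mainly around S phase. Most cells at the top of the blood hierarchy rest outside the cycle, whereas multipotent progenitors of the same marrow fraction divide more often.

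The RNA had passed through 2 rounds of amplification before hybridisation, per the labels. Every signal below is quantile-normalized between the arrays and on a linear scale. A gene was counted as detected where a probe set exceeded, in both samples, a control level, the 90th percentile of the 15 probe sets for bacterial genes. This level was 12.1 in sample 1 and 8.91 in sample 2. Differences are log2(sample 2) minus log2(sample 1) after signals under a floor of 20 were set to 20, so a negative value means a higher signal in sample 1. A ratio with 1 signal at the floor is a lower bound, written "at least". Signals of different probe sets are not set against each other.

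Replication genes were measured in most cases and were, with few exceptions, higher in sample 1. Of the 38 genes, 32 (84.2%) were detected, against 57.0% of all 8251 genes. The median difference of the 32 was -0.64, or 1.55-fold higher in sample 1, whereas that of all 4707 detected genes was 0.00. Sample 1 had the higher signal for 25 of the 32, sample 2 for 3, and 4 lay at the floor in each. The share higher in sample 1 was 78.1%, against 47.1% of all genes. Differences of 2-fold or more were found for 10 genes, all higher in sample 1 (31.2%, against 11.0% of all genes). None of the 32 was 2-fold higher in sample 2, as 9.62% of all genes were. Ranked among all 4707 genes by difference, 19 of the 32 lay in the 25% most shifted towards sample 1 and 0 in the 25% most shifted towards sample 2. The 10 genes were Mcm3, Mcm5, Mcm7, Tk1, Orc2, Gmnn, Pola2, Rfc2, Rpa1 and Rpa3. Mcm3, Mcm7, Tk1 and Rfc2 stayed 2-fold apart under each of the 5 alternatives that recompute a single gene's difference. Dropping the floor cannot move these 4 genes, and averaging cannot move Mcm7 or Rfc2, which have 1 probe set each. Tk1 came to only -1.01 when averaged with its other probe set, which lay under the floor in both samples. With all probe sets of a gene averaged Orc2 came to -0.72, Mcm5 to -0.69 and Pola2 to -0.64. With an offset of 32 added to each signal Orc2 came to -0.75, Gmnn to -0.76, Pola2 to -0.89, and Rpa1 and Rpa3 to -0.64, so that these 6 genes were less than 2-fold apart under 1 or both.

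**Figure D1:**
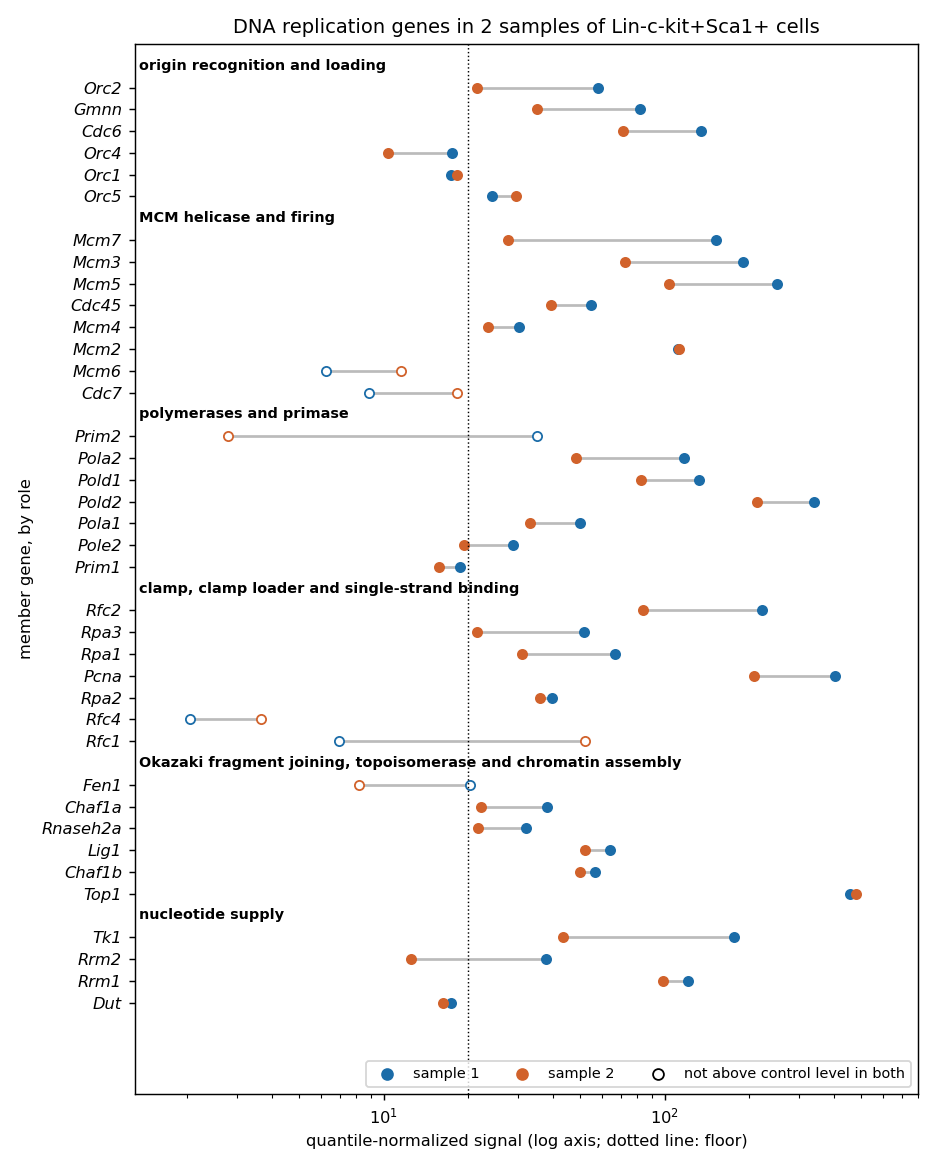
Quantile-normalized signal (log axis) of each of the 38 measured replication genes in sample 1 (blue) and sample 2 (orange), grouped by role, with 1 point per array and no error bars because each sample is 1 array. Filled points mark the 32 detected genes, and the dotted line is the floor of 20. Most blue points lie to the right of the orange ones.

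The replicative helicase held the gene with the widest gap. For Mcm7 sample 1 gave a signal of 153 and sample 2 one of 27.7, a 5.52-fold gap (difference -2.46, mean log2 signal 6.02 ± 1.74, SD, n = 2). It lay at percentile 0.45 of all detected genes, counted from the end most shifted towards sample 1. Mcm5 had 250.2 and 104 (2.41-fold), and its other probe set 21.6 and 10.15, close to or under the floor. Mcm3 was read by a pair of probe sets that gave nearly the same ratio, with 191 and 72.0 by one (2.65-fold) and 147 and 57.0 by the other. By their strongest probe sets these 3 helicase subunits were thus more than 2-fold lower in sample 2. The other subunits of the ring did not share that gap. Mcm2 had 112 in sample 1 and 113 in sample 2, and its sign turned with the deposited scaling (-0.06). Mcm4 had 30.2 and 23.6, close to the floor. Mcm6 had 6.25 and 11.5, and sample 1 was not above its control level. Among the 5 detected genes of this hexamer the differences ran from -2.46 to 0.01.

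Factors that act on the helicase were weaker in their differences. Cdc45, which joins the helicase when an origin fires, had 54.6 in sample 1 and 39.4 in sample 2 (1.39-fold). Cdc7, the kinase that triggers firing, had 8.90 and 18.3, and sample 1 was below its control level. Over the 6 detected helicase and firing genes the median difference was -0.87, with 5 higher in sample 1.

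Among licensing genes Orc2, Gmnn and Cdc6 were higher in sample 1, and the other origin subunits lay near or under the floor. Cdc6, the loader that brings the helicase to origins, had 134 and 71.1 (1.89-fold). Gmnn, which encodes geminin, the inhibitor that blocks a second round of loading, had 81.4 and 35 (2.33-fold). Orc2, a core subunit of the origin recognition complex, had 58.0 and 21.4 (2.70-fold), and its other probe set was below the control level in both samples, with 8.35 and 2.35. Orc5, of the same complex, went the other way with 24.2 and 29.6. Orc1 had 17.4 and 18.2 and Orc4 17.5 and 10.4, under the floor of 20 in both samples, so that they count as equal. Of these 6 genes 3 were higher in sample 1 and 1 in sample 2.

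Polymerase genes were mostly shifted in the same direction by smaller amounts. Pola2, the regulatory subunit of polymerase alpha, had 117 in sample 1 and 48.4 in sample 2 (2.43-fold) by one probe set and 8.35 and 8.6, below the control level, by the other, while Pola1, its catalytic subunit, had 50.05 and 33.2 (1.51-fold). For polymerase delta the 2 measured subunits gave nearly equal ratios. Pold1, the catalytic subunit, had 132 and 82.2 (1.61-fold). Pold2, an accessory subunit, had 341 and 213 (1.60-fold). Pole2, of polymerase epsilon, had 28.8 and 19.4, at least 1.44-fold. The primase genes were near the limit of measurement: Prim1 had 18.7 and 15.8, both under the floor, and Prim2 had 35.2 in sample 1 and 2.80 in sample 2, where it was not above the control level. Of the 6 detected polymerase and primase genes 5 were higher in sample 1 and 0 in sample 2, with a median difference of -0.64.

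The clamp and the single-strand binding proteins were higher in sample 1 in each detected gene. Pcna, the clamp that tethers the polymerases, gave 403 and 208, a 1.94-fold gap (mean log2 signal 8.18 ± 0.68, SD, n = 2). Rfc2, a subunit of the clamp loader, had 222 and 83.9 (2.65-fold). The loader subunits Rfc4, at 2.05 and 3.65, and Rfc1 were not detected. Of replication protein A, the trimer that coats single strands, Rpa1 had 66.6 and 31.1 (2.14-fold). Rpa3 had 51.6 and 21.4 (2.40-fold). Rpa2 had only 39.8 and 36 (1.11-fold). All 5 detected genes were higher in sample 1, with a median difference of -1.10, and within the trimer the gaps ran from 1.11-fold to 2.40-fold.

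Rfc1, the large subunit of the clamp loader, had the largest difference towards sample 2 of any measured member. One of its probe sets had 6.95 in sample 1 and 52.2 in sample 2, at least 2.61-fold, and the other had 12.1 and 8.70. Each probe set was above the control level in 1 sample only and they pointed in opposite directions, so the gene was not counted as detected.

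Genes of nucleotide supply included the second widest gap. Tk1, the thymidine kinase of S phase cells, gave 176 and 43.4, a 4.06-fold gap (difference -2.02, mean log2 signal 6.45 ± 1.43, SD, n = 2). A further probe set for Tk1 had 2.55 and 5.40, below the control level in both. Ribonucleotide reductase makes deoxyribonucleotides from a large and a small subunit. The small subunit gene Rrm2 had 37.8 and 12.5, at least 1.89-fold. The large subunit gene Rrm1 had 121 and 98.4, only 1.23-fold apart. Dut, the dUTPase that keeps uracil out of DNA, had 17.4 and 16.2, both under the floor. For the reductase, as for the helicase and replication protein A, the gap between the samples varied from subunit to subunit.

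Genes that finish and package the new strands, with Top1, had the smallest median gap of the 6 role groups. Lig1, the ligase of Okazaki fragments, had 64.0 in sample 1 and 52.0 in sample 2 (1.23-fold). Rnaseh2a, the catalytic subunit of an RNase that removes RNA from DNA, had 32.2 and 21.7 (1.48-fold). Fen1, the flap nuclease, had 20.3 and 8.20 and was not above the control level in sample 2. Of chromatin assembly factor 1, which places histones on new DNA, Chaf1a had 38.0 and 22.2 (1.71-fold) and Chaf1b 56.6 and 49.95 (1.13-fold). Top1, a topoisomerase that also acts in transcription throughout the cycle, had 456 and 478 (1.05-fold), with almost no gap. None of the 5 detected genes was 2-fold apart, and their median difference was -0.30.

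**Figure D2:**
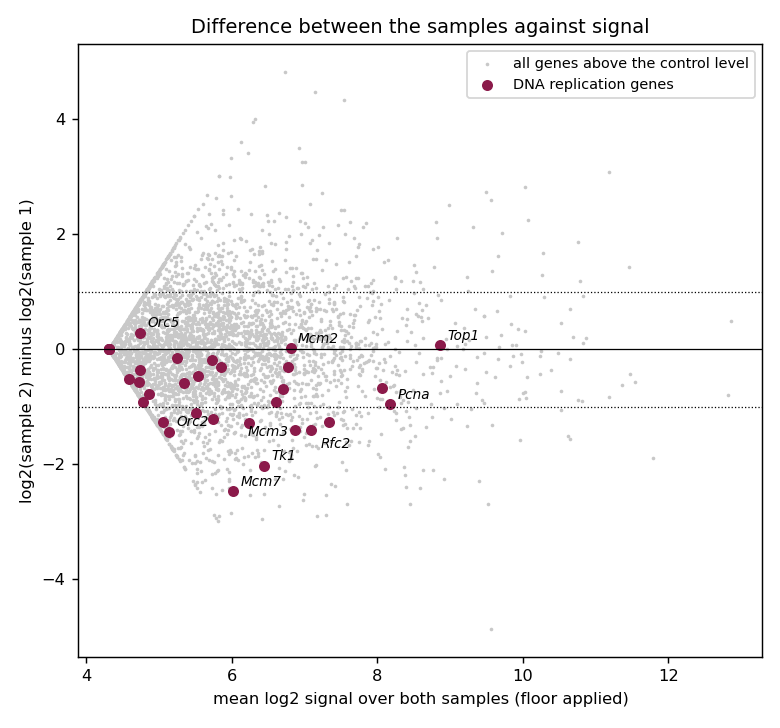
Difference between the samples, as log2(sample 2) minus log2(sample 1), against the mean log2 signal with the floor, for the 4707 detected genes (grey) and the 32 replication genes among them (dark red). Dotted lines mark 2-fold, and 10 replication genes lie at or under the lower line and 0 above the upper one.

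Dropping the floor could not turn a direction, and most additional probe sets were too weak to show one. Without the floor 28 of the 32 genes (87.5%) were higher in sample 1 and 4 in sample 2, against 53.0% of all genes higher in sample 1 on that scale. Only the genes tied at the floor could change here. Orc4, Prim1 and Dut were added to sample 1 and Orc1 to sample 2, at signals that have no order. The 6 genes that were not detected were split: Prim2 and Fen1 were higher in sample 1, and Mcm6, Cdc7, Rfc1 and Rfc4 in sample 2. Without the floor 6 of 10 genes with more than 1 probe set had both in the same direction. Of the 10 additional probe sets 8 were higher in sample 1 on that scale. All of them but those of Mcm3 and Mcm5 had both signals under the floor, where signals have no order. Only 3 of these 10 passed the control level in both samples, those of Mcm3, Mcm5 and Pold1. With the floor their differences were -1.37, -0.11 and 0. At a fixed signal of 40 in both samples only 14 of the 38 genes were detected, with 12 of them (85.7%) higher in sample 1 and 5 by 2-fold or more. Of the 1813 genes detected at that signal, 48.9% were higher in sample 1 and 11.3% by 2-fold or more.

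Other replication genes that are not members leaned to sample 1 as well, with a smaller share of 2-fold gaps. Of 30 measured genes for further subunits, histone chaperones and replication-coupled factors, 24 were detected (80%, against 57.0% of all genes). Of these 16 had more signal in sample 1 and 7 in sample 2, with a median difference of -0.50. Cdt1, the partner of Cdc6 in helicase loading and the target of geminin, had 216 and 75.2 (2.88-fold). Rbbp7, a histone-binding protein, had 442 and 159. In the other direction Rfc3, another clamp loader subunit, had 27.5 and 44.2, and Pold4 25.95 and 37.6. None of the 24 was 2-fold higher in sample 2, as 9.62% of all genes were. In sample 1, 4 were 2-fold higher (16.7%, against 11.0% of all genes). By any amount 66.7% were higher in sample 1, against 47.1% of all genes.

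A list of 28 measured nucleotide synthesis genes also leaned to sample 1. Of the 28, 22 were detected (78.6%, against 57.0% of all genes). Among these 22, 17 were higher in sample 1 (77.3%, against 47.1% of all genes) and 5 in sample 2. The median difference of -0.61 came to -0.32 with all probe sets of a gene averaged and -0.33 with an offset of 32 added to each signal. Dhodh, of pyrimidine synthesis, had 149 and 27.9 (5.34-fold) by the stronger of its 2 probe sets. The nucleoside diphosphate kinase gene Nme2 had 409 and 136 (3.01-fold). The gene Umps, of the same pyrimidine pathway, went the other way with 136 and 221, as did Uck2 with 109 and 151. Of 15 measured regulators of S phase entry 9 were detected (60%, near the 57.0% of all genes). Among these 9, 6 were higher in sample 1 (66.7%, against 47.1% of all genes). Ccne1, which encodes cyclin E1, had 65.0 and 23.0 (2.82-fold), and Tfdp1, the partner of E2F factors, had 209 and 98.4 (2.13-fold). E2f1 had 26.05 and 31.2, and Cdk2 53.6 and 57.0.

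Mitosis genes, which are expressed later in the same cycle, did not lean to one sample. Of 35 measured genes 31 were detected (88.6%, against 57.0% of all genes). Of these 15 had more signal in sample 1 (48.4%, against 47.1% of all genes), 15 had more in sample 2 and 1 was tied. Their median difference was 0.00 (-0.25 over the 15 genes left at a fixed signal of 40). Pttg1, which encodes securin, had 129 and 34.6 (3.72-fold), and the checkpoint gene Bub3 had 197 and 66.2. In the other direction Cks2, a subunit of cyclin-dependent kinases, had 78.0 and 419 (5.37-fold), and the kinesin gene Kif23 had 63.3 and 277 (4.38-fold). Differences of 2-fold or more were found for 5 genes towards sample 1 (16.1%, against 11.0% of all genes). Towards sample 2 they were found for 6 of the 31, where the share of all genes was 9.62%. Of 11 measured genes for D-type cyclins, Cdk4 and kinase inhibitors, 7 were detected (63.6%, against 57.0% of all genes). Sample 2 was higher for 5 of the 7, among them Ccnd3 with 79.6 and 264 and Cdkn1a, the gene of the inhibitor p21, with 33.4 and 75.4. Cdk4, with 358 and 264, and Cdkn2c, with 53.4 and 47.4, were higher in sample 1 (28.6% of the 7, against 47.1% of all genes). With 1 array for each sample the difference between these lists could not be tested.

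**Figure D3:**
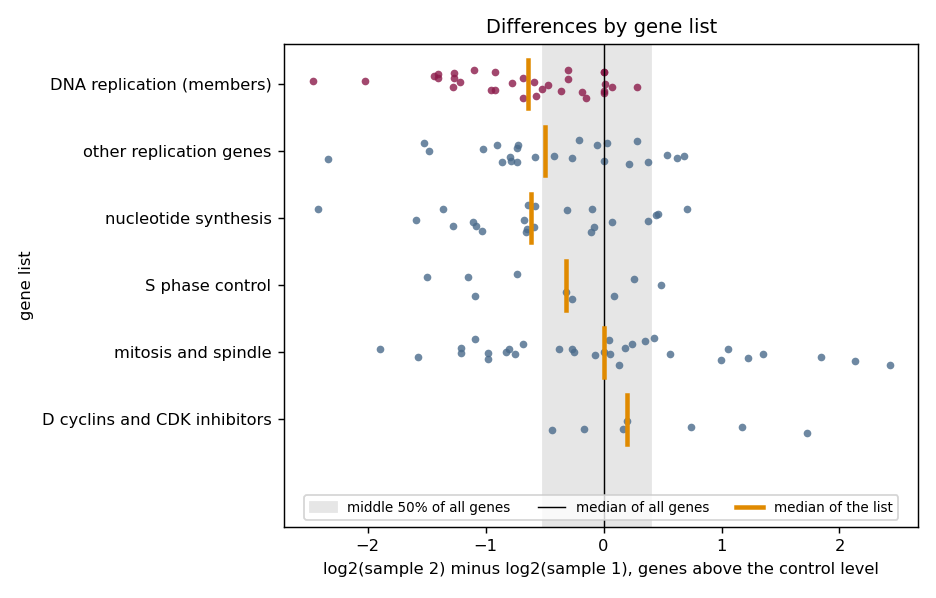
Difference between the samples, as log2(sample 2) minus log2(sample 1), for each detected gene of 6 gene lists, with 1 point per gene spread vertically at random and an orange bar at the median of each list. The grey band is the middle 50% of all 4707 genes and the black line their median. The replication genes have a median of -0.64, and the mitosis and spindle genes one of 0.00.

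Measures of RNA integrity and of cell composition differed between the samples as well. The array carries probe sets along the Actb and Gapdh transcripts. A high ratio of the 3′ to the 5′ one means that the 5′ part was less fully copied than the 3′ part. The ratio for Actb was 10.4 in sample 1 and 22.2 in sample 2, and that for Gapdh was 11.2 and 19.0. The 5′ signals themselves were 194 and 175 for Actb and 193 and 78.9 for Gapdh. The 3′ signals were 2012 and 3875 for Actb and 2172 and 1498 for Gapdh. The higher Actb ratio in sample 2 thus came mainly from its 3′ signal, and that of Gapdh from its 5′ signal. Where the probe sets of the replication genes lie along their transcripts is not in the sources used here, and the part of this bias in their differences was not tested.

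Most detected myeloid marker genes were higher in sample 1, as the replication genes were. Of 15 measured, 13 were detected (86.7%, against 57.0% of all genes). Of these 9 were higher in sample 1 (69.2%, against 47.1% of all genes), 7 of them by 2-fold or more (53.8%, against 11.0%). Their median difference of -1.21 came to -0.67 with all probe sets of a gene averaged, where 5 were 2-fold higher in sample 1 (8.43% of all genes were). It came to -0.42 over the 9 genes left at a fixed signal of 40. The summed signal of all 15 was 3665 in sample 1 and 2022 in sample 2. Mpo, the myeloperoxidase gene of granulocyte and monocyte progenitors, had 1862 and 288, and without it the sums were 1803 and 1734. Cebpa, a myeloid transcription factor gene, had 141 and 54.8, and Lyz2, the lysozyme gene, 104 and 26.9. The granule genes Ngp, with 60.0 and 275, and Camp, with 91.8 and 269, were higher in sample 2, and Itgam, which encodes the lineage antigen CD11b, had 3.65 and 1.5. Erythroid genes were detected in 8 of 10 cases (80%, against 57.0% of all genes), 4 higher in each sample. Their summed signal was 1238 and 1357. Car1, of erythroid progenitors, had 488 and 75.9 and Klf1, an erythroid transcription factor, 215 and 80.5, whereas the globin gene Hba-a1 had 30.1 and 670.3. Without Hba-a1 the erythroid sums were 1208 and 687. B lineage genes were detected in 5 of 9 cases (55.6%, near the 57.0% of all genes), with a summed signal of 187 and 228. Ebf1, a B cell transcription factor, had 3.1 and 2.7. T and NK lineage genes were detected in 1 of 12 cases (8.33%, far below that share), with a summed signal of 96.0 and 91.5. The T cell receptor subunit gene Cd3e had 5.75 and 4.8. Of 14 stem and early progenitor genes 10 were detected (71.4%, against 57.0% of all genes). Of these 3 were higher in sample 1 (30%, against 47.1% of all genes) and 7 in sample 2. The summed signal of all 14 was 1693 and 3241. The gap in this sum came from Lyl1, a transcription factor gene with 695 and 2224, without which the sums were 998 and 1017. Kit, on which the cells were sorted, had 25.8 and 19.4, and the Sca-1 gene was not analysed here. The part of these differences in those of the replication genes was not tested, and in sorted cells measured in bulk fewer cells of a type cannot be told apart from less RNA in each cell.

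E2F words, which the choice of genes did not use, were found in a larger share of replication gene promoters than of promoters on the array, though most of the replication genes had none. RefSeq promoter windows on GRCm38.p6, from 250 bases before the start site to 50 after it, were found for 34 of the 38 measured genes, in 43 windows. They were searched on both strands for the E2F words TTTCCCGC, TTTCGCGC, TTTGCCGC and TTTGGCGC, for the CCAAT box (ATTGG), the GC box (GGGCGG) and the cell cycle homology region or CHR (TTTGAA or TTCGAA). An E2F word was found in 23.3% of the 43 windows, against 3.52% of 8412 windows of genes on the array and 2.26% of all 32851 windows. A CCAAT box was found in 53.5%, against 37.0% of windows of genes on the array and 37.4% of all. For the GC box the shares were 74.4%, 57.0% and 35.7%, and for the CHR they were 16.3%, 14.6% and 19.2%. The windows of mitosis and spindle genes differed from this in the E2F word, found in 6.45%, and the CHR, found in 71.0% of 31. A CCAAT box and a GC box were each found in 77.4% of them, so these boxes were not particular to the replication genes. The median number of CG pairs per 100 bases was 7.67 in replication gene windows and 8.33 in those of mitosis genes. It was 6 in windows of genes on the array and 2.33 in all. The part of this in the motif shares was not tested. A match is a run of letters and not a measured site, and overlapping E2F words were counted singly.

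The upstream stretches of the 6 genes with an E2F word before the start site are shown because they include Mcm7 and Mcm5, which were more than 2-fold apart, beside genes with smaller gaps or none measured. Each is the 180 bases up to the start site on the gene's own strand, 5′ to 3′, with E2F words on either strand in capitals. The positions on GRCm38.p6 are chr5:138171884-138172063 (minus strand) for Mcm7, chr8:75109329-75109508 (plus strand) for Mcm5, chr1:128359706-128359885 (minus strand) for Mcm6, chr11:98907971-98908150 (plus strand) for Cdc6, chr4:108579274-108579453 (plus strand) for Orc1 and chrX:93632156-93632335 (minus strand) for Pola1.
Mcm7: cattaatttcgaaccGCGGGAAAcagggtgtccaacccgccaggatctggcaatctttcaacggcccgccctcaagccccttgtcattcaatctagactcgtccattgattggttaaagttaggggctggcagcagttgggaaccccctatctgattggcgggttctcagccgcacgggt
Mcm5: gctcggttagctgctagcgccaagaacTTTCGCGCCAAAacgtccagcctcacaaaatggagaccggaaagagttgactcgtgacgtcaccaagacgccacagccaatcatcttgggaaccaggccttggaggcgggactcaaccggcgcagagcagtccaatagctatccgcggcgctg
Mcm6: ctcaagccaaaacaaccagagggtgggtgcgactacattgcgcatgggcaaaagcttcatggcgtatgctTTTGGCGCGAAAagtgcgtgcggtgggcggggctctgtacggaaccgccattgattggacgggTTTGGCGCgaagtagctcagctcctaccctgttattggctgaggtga
Cdc6: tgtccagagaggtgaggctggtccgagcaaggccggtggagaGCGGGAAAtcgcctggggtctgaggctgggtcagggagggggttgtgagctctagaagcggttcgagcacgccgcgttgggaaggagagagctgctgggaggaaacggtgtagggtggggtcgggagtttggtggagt
Orc1: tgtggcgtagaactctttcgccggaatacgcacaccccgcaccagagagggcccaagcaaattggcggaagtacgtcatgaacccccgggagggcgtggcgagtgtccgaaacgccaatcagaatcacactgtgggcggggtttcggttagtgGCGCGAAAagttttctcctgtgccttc
Pola1: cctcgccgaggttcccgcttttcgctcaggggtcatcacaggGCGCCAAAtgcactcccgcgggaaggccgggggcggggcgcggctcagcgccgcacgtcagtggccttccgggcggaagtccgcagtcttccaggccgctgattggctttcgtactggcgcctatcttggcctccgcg

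In Mcm5 and in Mcm6 a pair of E2F words on opposite strands overlap, starting 153 and 149 bases before the start site in Mcm5 and 110 and 106 bases before it in Mcm6, which has another word at 47. Mcm7 has a word 165 bases before the start site of 1 of its 2 windows, and another in the same window at base 17 after it. Cdc6 and Pola1 have theirs 138 bases before the start site, and Orc1 27 bases before it. The genes Mcm3, Lig1, Pold1 and Pole2 had E2F words only after the start site. Of these 10 genes Mcm6 was not detected, although it has the same overlapping pair as Mcm5. Of the 9 others 8 were higher in sample 1 and 3 by 2-fold or more, with a median difference of -0.68. Of 20 detected replication genes with a promoter window but no E2F word, 14 were higher in sample 1 and 5 by 2-fold or more, with a median of -0.52. These 5 were Orc2, Pola2, Rpa1, Rpa3 and Tk1. Gmnn and Rfc2, which were also 2-fold apart or more, had no window to search. The differences of genes with and without an E2F word therefore overlapped, from -2.46 to 0.00 and from -2.02 to 0.29.

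**Figure D4:**
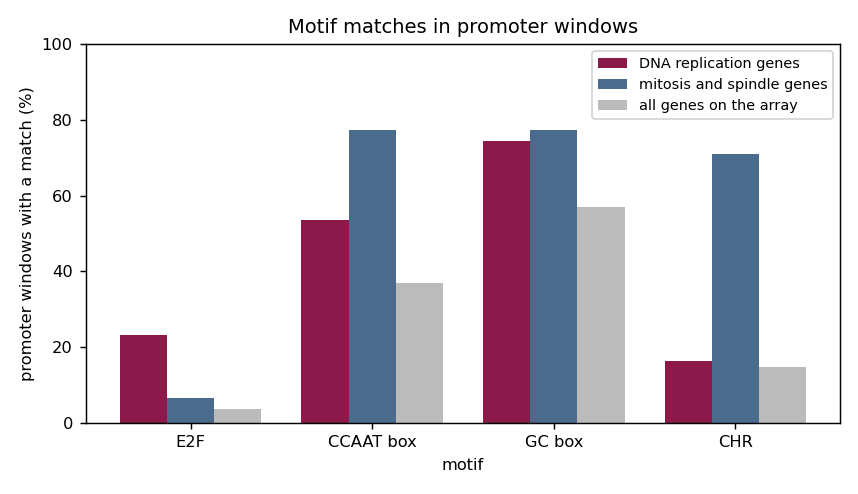
Share of promoter windows with at least 1 match to each motif (percent, axis from 0 to 100), for the 43 windows of measured replication genes (dark red), 31 windows of mitosis and spindle genes (blue) and 8412 windows of all genes on the array (grey). Bars are counts of matches over windows with no error. The E2F share is 23.3% for replication genes and 6.45% for mitosis genes, and the CHR share is 16.3% and 71.0%. The CCAAT box share is 53.5% and 77.4%, and the GC box share 74.4% and 77.4%.

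**Figure D5:**
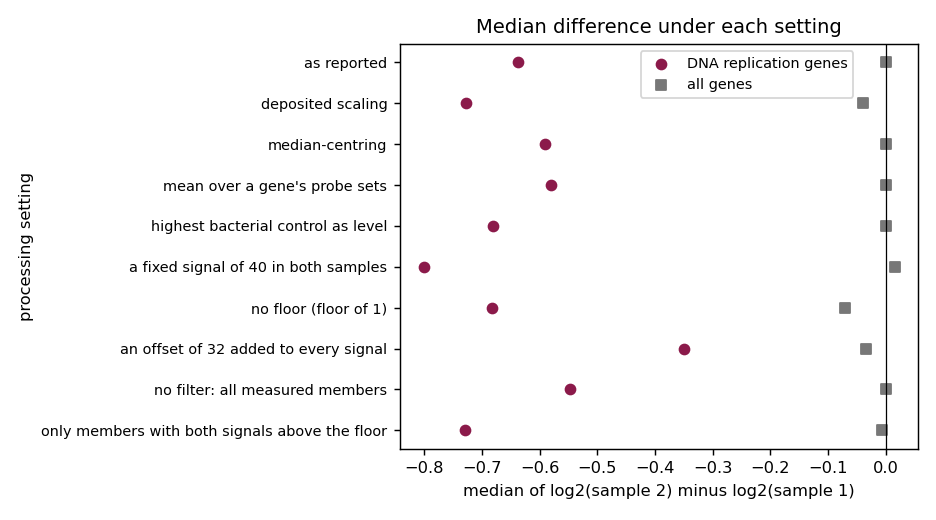
Median of log2(sample 2) minus log2(sample 1) for the replication genes (dark red circles) and for all genes (grey squares) under the processing as reported and 9 alternatives, with no error bars because each value comes from 1 pair of arrays. The replication genes lie between -0.80 and -0.35 and all genes between -0.07 and 0.02. Most alternatives keep the order of a gene's 2 signals or recount the same differences, so the direction was largely fixed in advance.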

How the data were processed

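The authors deposited signal intensity values, 1 per probe set and array, for 12488 probe sets in 2 samples. Equal column means (53.9) point to a common scale factor. The sources used here do not give the summary method. Both arrays were quantile-normalized, signals under 20 were set to 20, and log2 was taken (numpy 2.4.6, pandas 2.3.3). The 66 control probe sets were left out of counts. The platform annotation, as given in the probe table, named 1 gene for 10833 probe sets, several for 396 and none for 1193. A gene was detected if 1 or more of its probe sets passed the bacterial control level in both samples, and the probe set strongest on average gave its value. Genes that are not members are given by that probe set alone. Some of them have others that are not shown, among them Dhodh, Cdt1, Pttg1, Bub3, Umps, Tfdp1, Mpo, Lyz2 and Lyl1. All 38 member gene IDs matched the RefSeq table of GRCm38.p6. The members and lists were chosen with earlier results of these data known. Named were all members and, in each other list, up to 2 genes per direction with the widest gap among those detected and over the floor in both samples; others were chosen after their values were seen. With 1 group of 2 arrays there is no test, and the number of arrays limits the precision. The calculations were tested on simulated data with shifts only in genes well above the floor, so shifts near the floor were not checked. Alternatives were 2 scalings, 2 control levels, no floor, an offset of 32, the mean over probe sets, other filters and each sample alone.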

Additional observations from a re-analysis of the deposited data

How the results depend on the processing

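The lean of the replication genes towards sample 1 kept its direction under each of 9 alternatives. Their median difference ran from -0.80 to -0.35 (as reported -0.64), beside -0.07 to 0.02 for all genes. For most alternatives this direction was largely fixed in advance. No floor and an offset keep the order of a gene's 2 signals. Other control levels and filters recount the same differences over other sets of genes. Averaging cannot move the 28 measured members with 1 probe set each. The share of all detected genes higher in sample 1 was 47.1% as reported and 51.9% with the deposited scaling, against 78.1% and 81.2% of the replication genes. The number detected was 32 under either other scaling and with probe sets averaged, 31 with the highest bacterial control as the level, 26 where all probe sets had to pass, and 35 (range 35 to 35) when either sample was left out. It was 14 at a fixed signal of 40. Of all 8251 genes, 4707 were detected as reported, 4372 with the highest bacterial control as the level and 1813 at a fixed signal of 40. The number 2-fold higher in sample 1 was 10 and lay between 7 and 11 except at a fixed signal of 40, where fewer genes were counted, and with an offset of 32, which shrinks ratios of weak signals. It was 5 in both cases. The share of all detected genes 2-fold higher in sample 1 moved too, from 11.0% as reported to 8.43% with probe sets averaged. It was 12.6% with the deposited scaling, 14.3% without the floor, 11.3% at a fixed signal of 40 and 4.46% with the offset. The number 2-fold higher in sample 2 was 0 except without a filter on low signals, where it was 1 (Rfc1). The 10 genes that were 2-fold apart gave 50 values under the 5 alternatives that recompute a single gene's difference. Of these values 50 kept their sign and 42 stayed at 2-fold or more, but part of this was fixed in advance. Without the floor none of the 10 genes can move, as both signals lie above it. Averaging cannot move Mcm7, Rfc2, Gmnn, Rpa1 or Rpa3, which have 1 probe set each, and an offset cannot turn a sign. The D cyclin list turned to -0.17 at a fixed signal of 40, with 3 genes left. No paired analysis was possible because there is 1 group. Signals near the floor of 20, as for Orc1, Orc4, Prim1 and Dut, have no order.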
